A study of Rattus norvegicus with 40 samples.

Results

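The miR-375, miR-7, miR-216 and miR-217 families were followed in the plasma of rats after traumatic brain injury (TBI). Every row of the count table whose name begins with miR-375, miR-7a, miR-7b, miR-216a, miR-216b or miR-217 was taken, whatever its arm or copy. This gave 12 rows of the 752 in the table, of which 581 had a read in at least 1 library. They were rno-miR-375-3p, rno-miR-375-5p, rno-miR-7a-5p, rno-miR-7b, rno-miR-7a-1-3p, rno-miR-7a-2-3p, and the 5p and 3p arms of rno-miR-216a, rno-miR-216b and rno-miR-217, and the prefix for rat is left out in what follows. Small RNA was sequenced from the plasma of 20 adult male Sprague-Dawley rats, each bled on day 2 (D2) and day 9 (D9) after the operation, giving 40 libraries. There were 16 rats with lateral fluid-percussion injury and 4 sham-operated rats, whose operation included the craniotomy, so the shams were not uninjured animals. Of the injured rats, 7 had epilepsy (TBI+) and 9 did not (TBI−) when video-EEG was recorded in the sixth month. Each library is 1 rat on 1 day, and 1 plasma sample holds miRNAs from many tissues. D2 and D9 libraries of 1 group with the same number in their titles were taken as the same rat.

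MiR-375 is a miRNA of endocrine cells, best known from the pancreatic islet, where it restrains insulin release, and it is also made in the pituitary, the lung and the gut epithelium. MiR-7 is abundant in islets, in the pituitary and in neurons, and its mature 5p strand is made from several hairpins. MiR-216a, miR-216b and miR-217 lie in 1 cluster, are made mainly by the acinar cells of the exocrine pancreas, and are known in plasma as markers of pancreatic injury. A hairpin can give a miRNA from each arm, named 5p and 3p, and bases 2 to 8 of the mature strand, the seed, pair with target mRNAs.

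The mature sequences of all 12 members were found by name in RefSeq (assembly GRCr8, which is not the Rno6 build the reads were mapped to). Those that follow are the members the results turn on, with the seed in capitals. MiR-7a-5p and miR-7b are shown because their near identity could bear on how their reads were counted, which was not tested. The others are shown because they had the most reads of their families or were called.
miR-375-3p: uUUGUUCGuucggcucgcguga
miR-7a-5p: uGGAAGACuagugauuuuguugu
miR-7b: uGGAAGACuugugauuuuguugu
miR-7a-1-3p: aCAACAAAucacagucugccau
miR-216a-5p: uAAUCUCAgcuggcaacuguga
miR-216a-3p: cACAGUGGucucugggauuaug
miR-217-5p: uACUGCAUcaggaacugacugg
The 12 sequences had 11 distinct seeds, and the only shared seed was that of miR-7a-5p and miR-7b. Counted from the 5′ end, miR-7b differed from miR-7a-5p by the single substitution A10U. MiR-7a-5p had 2 entries in the assembly, on chr1:142215818-142215840 and inside the gene Hnrnpk on chr17:6278710-6278732, both on the plus strand, and miR-7b was at chr9:1167464-1167486 on the plus strand. MiR-375-3p was at chr9:83906591-83906612 on the minus strand. The cluster of miR-216a, miR-216b and miR-217 lay within a long noncoding RNA gene on the plus strand of chromosome 14, with miR-216a-5p at chr14:106725095-106725116 and miR-217-5p at chr14:106732516-106732537, and spanned 18531 bases from miR-216b-5p to miR-217-3p.

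The members differed greatly in abundance, and only miR-375-3p was well counted. Levels are given in CPM, the reads of a miRNA per 1e+06 miRNA reads of its library. MiR-375-3p had 172392 reads over the 40 libraries and a mean of 4410 CPM, ranking 34 among all miRNAs. It made up 99.2% of the members' reads, which together were 0.377% of all reads. MiR-7a-1-3p followed with 715 reads. MiR-7a-5p had 64 reads in 1 library and 113 in the other 39. Then came miR-217-5p with 129 reads, miR-216a-5p with 108, miR-7a-2-3p with 84, miR-7b with 65 and miR-216a-3p with 41. The other 4 members had between 5 and 9 reads each.

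Library depth set what could be seen. On D2 the libraries held between 404542 and 2562083 reads. On D9 the TBI libraries held between 332161 and 2864893 reads, while the 4 sham libraries held between 140636 and 358202. A count of 3 reads, taken as the limit of detection, was therefore worth between 8.38 and 21.3 CPM in the D9 shams. The limit covers counting error only.

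More than 3 reads were found for miR-375-3p in 40 of 40 libraries, miR-7a-1-3p in 34, miR-7a-5p in 14, miR-216a-5p in 12, miR-217-5p in 12, miR-7a-2-3p in 9, miR-7b in 4 and miR-216a-3p in 3. MiR-375-5p, miR-216b-5p, miR-216b-3p and miR-217-3p stayed at or below 3 reads in every library. Without the D9 library of sham rat 2, miR-7a-5p was above 3 reads in 13 of 39 libraries and miR-7b in 3, and the other counts changed only for miR-375-3p, to 39. A count of 0 in this table is no proof of absence, since miR-122-5p, the main miRNA of liver, and miR-1-3p and miR-133a-3p of muscle were listed at 0 in all 40 libraries.

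**Figure D1:**
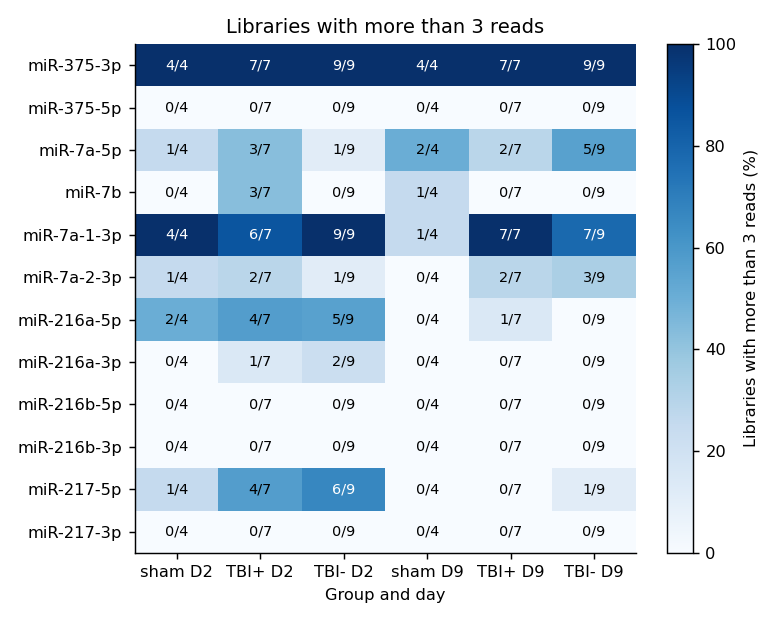
The number of libraries with more than 3 reads is written in each cell for the 12 members (rows) in the 3 groups on D2 and D9 (columns), and the colour gives the same as a percentage of the group's libraries. MiR-375-3p passed in every library, and miR-216a-5p and miR-217-5p passed in 11 D2 libraries each and in 1 D9 library each.

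MiR-375-3p, the strand of miR-375 that acts in islets, was higher on D9 than on D2 in all 4 sham rats. On D2 sham rats 1 to 4 had 3678, 3366, 3558 and 2467 CPM, a mean of 3267 ± 549 (SD, n = 4). On D9 they had 7623, 7513, 6934 and 6401 CPM, a mean of 7118 ± 565 (SD, n = 4). The 2 days did not overlap, and the ratio of D9 to D2 lay between 1.95 and 2.59 in the 4 rats. How many other miRNAs separated the 2 days of the shams in this way was not counted. Every D9 sham library was also shallower than every D2 sham library. In the edgeR fit without the rat as a block, the log2 fold change of miR-375-3p was 1.15 ± 0.47 (SE) with an adjusted p of 0.151. The same animals were bled on both days, and with the rat as a block in edgeR the log2 fold change was 1.15 ± 0.35 (SE) with an adjusted p of 0.0344, in a fit that called 4.99% of all miRNAs. DESeq2 without the block gave 1.38 with an adjusted p of 0.0452. An exact sign-flip permutation test over the 4 rats gave a two-sided p of 0.125, the smallest that 4 rats allow. Without sham rat 2 the D9 mean was 6986 ± 612 CPM (SD, n = 3), and the blocked edgeR log2 fold change was 1.14 ± 0.41 (SE) and no longer passed (adjusted p = 0.0863).

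In the injured rats miR-375-3p spread far more widely and had no common direction. TBI+ rats had a lowest, median and highest level of 2623, 3109 and 10545 CPM on D2, and of 2266, 4197 and 9316 CPM on D9. TBI− rats had 1513, 2232 and 9977 CPM on D2, and 2976, 3804 and 7990 CPM on D9. The means were 4401 ± 2800 and 4776 ± 2437 CPM (SD, n = 7) in TBI+ and 3478 ± 2891 and 4370 ± 1804 CPM (SD, n = 9) in TBI−. The level was higher on D9 in 4 of 7 TBI+ rats and in 7 of 9 TBI− rats, and the edgeR log2 fold changes were 0.11 ± 0.35 (SE, adjusted p = 0.892) and 0.36 ± 0.31 (SE, adjusted p = 0.453). With the rat as a block in edgeR they were 0.25 ± 0.28 (SE, adjusted p = 0.631) in TBI+ and 0.56 ± 0.24 (SE, adjusted p = 0.0885) in TBI−.

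**Figure D2:**
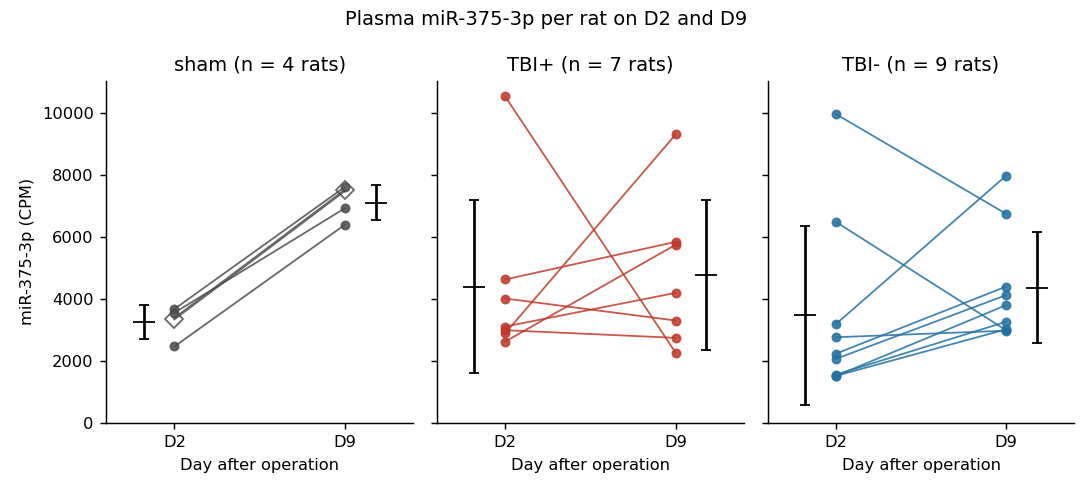
Each line joins the miR-375-3p level (CPM, linear axis from 0) of 1 rat on D2 and D9 in the sham, TBI+ and TBI− groups, and the black marks are the group mean ± SD. Open diamonds mark sham rat 2. All 4 sham lines go up, from between 2467 and 3678 to between 6401 and 7623 CPM, while lines cross in both TBI groups.

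The library numbers in the sample titles moved with this pattern in part, in sham and TBI+ but not in TBI− rats. These numbers were divided here into 3 runs, of which the second and the third follow on without a gap. The limits of the runs are thus a choice, and the sources used here do not say what the numbers stand for. All 4 shams and TBI+ rats 1 to 4 had D2 libraries in the first run and D9 libraries in the third. TBI+ rats 1 to 4 were each higher on D9 too, from a mean of 3313 ± 900 CPM to 6278 ± 2162 CPM (SD, n = 4). TBI+ rats 5 to 7, with D2 libraries in the second run and D9 libraries in the first, were each lower on D9, from a mean of 5851 ± 4098 to 2772 ± 520 CPM (SD, n = 3). TBI− rats 1 to 4 had the same order of runs, and 3 of these 4 were higher on D9, going from 1554 to 3266, from 2065 to 4128 and from 3187 to 7990 CPM, while rat 3 went from 9977 to 6749 CPM. In the D9 libraries of the first run the mean was thus 5187 ± 2063 CPM in TBI− (SD, n = 5) beside 2772 CPM in TBI+. In an edgeR fit of the 8 rats in the first and the third run alone, the log2 fold change was 1.25 ± 0.31 (SE, adjusted p = 0.0046) in shams and 1.02 ± 0.31 (SE, adjusted p = 0.0269) in TBI+. Only TBI− rats 5 and 6 had both libraries in 1 run, and their levels went from 2232 to 4404 CPM and from 2764 to 2976 CPM. For the shams and TBI+ rats 1 to 4 the day and the run cannot be told apart.

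The TBI and sham groups were compared within each day. On D2 miR-375-3p was at 3882 ± 2796 CPM (SD, n = 16) in TBI and 3267 CPM in sham, and the edgeR log2 fold change was 0.34 ± 0.38 (SE, adjusted p = 0.650). On D9 it was at 4547 ± 2038 CPM (SD, n = 16) in TBI against 7118 CPM in sham, and 3 of the 16 TBI rats were at or above the lowest sham. The edgeR log2 fold change was −0.54 ± 0.29 (SE) with an adjusted p of 0.398, and an exact permutation test of the mean log2(CPM + 1) gave a two-sided unadjusted p of 0.0241. Without sham rat 2 these became −0.65 ± 0.33 (SE, edgeR adjusted p = 0.399) and an exact permutation p of 0.0526. Scaled to miR-28-3p, the reference the study used for PCR, the edgeR log2 fold change was −0.84 ± 0.24 (SE, adjusted p = 0.0420). That scaling moved the median over all miRNAs from 0.30 to 0.09, and 27 of its 29 calls were lower in TBI, against 13 of 19 with TMM scaling. Within the third run alone, where the 4 shams stand beside TBI+ rats 1 to 4, it was −0.17 ± 0.37 (SE, unadjusted p = 0.648). The change of the TBI against sham difference from D2 to D9 was −0.91 ± 0.52 (SE, edgeR adjusted p = 0.427). The opposite arm, miR-375-5p, had 6 reads in 5 libraries and was not compared.

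Markers of other sources were summed in the same libraries. MiR-192-5p and miR-194-5p are called gut and kidney miRNAs here, but they are also counted among liver miRNAs, so liver is not set apart by that name. They went from 35039 ± 8137 CPM on D2 to 69062 ± 26161 CPM on D9 in shams (SD, n = 4), with miR-192-5p the more abundant. Over the same days 3 red cell miRNAs, of which miR-451-5p was the most abundant, went from 3351 ± 1042 to 3979 ± 1405 CPM in shams, and the summed brain miRNAs, led by miR-128-3p, from 6319 ± 1583 to 2661 ± 938 CPM. Here and below the brain sum is weighted to miR-128-3p, its most abundant miRNA. Its other miRNAs were not followed one by one, so the sum need not stand for them or for the brain as a source. MiR-223-3p, of myeloid cells and platelets, went from 2601 ± 605 to 1406 ± 768 CPM in shams. In TBI+, where miR-375-3p went from 4401 to 4776 CPM, the gut and kidney miRNAs went from 37529 ± 24509 to 69243 ± 24997 CPM (SD, n = 7), about the same D9 level as in sham. In TBI−, where miR-375-3p went from 3478 to 4370 CPM, they went from 51566 ± 33404 to 55108.5 ± 23687 CPM (SD, n = 9). The gut and kidney ranges of the 2 days overlapped in sham and in TBI+, and the marker sums were not tested. On D9 the TBI rats stood at 6815 ± 3271 CPM for red cell, 6159 ± 2868 for brain, 2553 ± 942 for miR-223-3p and 61292 ± 24528 for gut and kidney miRNAs (SD, n = 16). The part of these sources in the level of miR-375-3p was not tested. The miRNAs with the pattern most like that of miR-375-3p over the 40 libraries were miR-141-3p (Pearson r 0.61 of log2 CPM), miR-200a-3p (0.61) and miR-339-3p (0.49), among the 272 that averaged 10 reads or more. Over 39 libraries, without the D9 library of sham rat 2, they were miR-141-3p (0.60), miR-200a-3p (0.60) and miR-423-3p (0.50). MiR-141-3p and miR-200a-3p belong to the epithelial miR-200 family. These libraries also differ in depth, with which miR-375-3p had an r of −0.50, so the values describe these libraries and carry no test.

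MiR-7a-5p and miR-7b, the strands of miR-7 that carry the conserved seed, were scarce in every library but one. On D9 sham rats 1 to 4 had 0, 64, 4 and 2 reads of miR-7a-5p and 0, 30, 2 and 0 reads of miR-7b. Sham rat 2 thus had 395 CPM of miR-7a-5p and 185 CPM of miR-7b, while the highest level in the other 39 libraries was 19.8 and 9.90 CPM. That library held 0.352% of all reads but 36.2% of the miR-7a-5p reads and 46.2% of the miR-7b reads. The TBI rats on D9 had at most 10 reads of miR-7a-5p, a mean of 2.38 ± 2.74 CPM (SD, n = 16), and at most 3 reads of miR-7b, a mean of 0.434 ± 0.610 CPM (SD, n = 16). On D2 the means were 2.80 ± 2.89 CPM in sham (SD, n = 4) and 1.66 ± 2.62 CPM in TBI (SD, n = 16) for miR-7a-5p, and at most 14 reads were counted in a library.

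The counts of these 2 near-identical rows were linked in most libraries. The miR-7a-5p count was an even number in 22 of the 23 libraries with reads of it. All 16 libraries with miR-7b reads also had miR-7a-5p reads. The miR-7b count was never above 50% of the miR-7a-5p count, and it was exactly 50% of it in 11 of the 16. The link was not complete, since 7 of the 23 libraries had miR-7a-5p reads and no miR-7b reads, among them TBI− rat 6 on D9 with 10 reads of miR-7a-5p. How reads that align to several places were assigned is not given in the sources used here, so whether the 2 rows counted separate molecules cannot be told from the table.

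That 1 sham library carried the calls of miR-7a-5p and miR-7b on D9. Of the 11 members with a read on D9, 2 were called between TBI and sham, both lower in TBI, where 3.51% of the 541 miRNAs tested were called (2.4% lower). MiR-7a-5p had an edgeR log2 fold change of −5.11 ± 0.71 (SE, adjusted p = 6.48e-06) and miR-7b of −6.07 ± 0.82 (SE, adjusted p = 4.62e-06). No TBI library on D9 and no sham library on D2 had more than 3 reads of miR-7b, so its fitted fold changes depend on the prior count and are no bounds. The mean miR-7b level in sham was 48.7 CPM with sham rat 2 and 3.30 CPM without it, and 3 reads were worth a mean of 3.31 CPM over the TBI libraries. DESeq2, the tool of the study, called both rows too. It called 16 miRNAs in all, 4.41% of the 363 it gave an adjusted p. Without sham rat 2 the edgeR values were −1.74 ± 0.99 (SE, adjusted p = 0.474) for miR-7a-5p and −2.37 ± 1.28 (SE, adjusted p = 0.444) for miR-7b. No miRNA of the 541 was then called by edgeR, while 70 had an unadjusted p below 0.05. DESeq2 without that library still called 17 miRNAs, 5.67% of those it gave an adjusted p, and gave miR-7a-5p and miR-7b none. In exact permutation tests the two-sided p went from 0.0252 with all shams to 0.255 without rat 2 for miR-7a-5p, and from 0.0328 to 0.164 for miR-7b.

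The same 2 rows were called in the other comparisons that use the D9 shams, all of which share that library. In TBI+ against sham, where 1.85% of miRNAs were called, the edgeR log2 fold change of miR-7a-5p was −5.63 ± 0.91 (SE, adjusted p = 0.000144) and the adjusted p of miR-7b was 0.000271. In TBI− against sham, where 4.81% were called, miR-7a-5p had −4.82 ± 0.79 (SE, adjusted p = 7.84e-05) and miR-7b an adjusted p of 4.95e-05. From D2 to D9 in shams, where 5.68% were called, miR-7a-5p had 5.31 ± 1.22 (SE, adjusted p = 0.0044) and miR-7b an adjusted p of 0.0080, and with the rat as a block the call of miR-7b was lost. The TBI against sham difference changed between the days by −4.98 ± 1.36 (SE) for miR-7a-5p, and both rows were called (edgeR, both adjusted p = 0.0289), where 3.27% were called, and neither row was called with the rat as a block. In none of these was either row called by edgeR without sham rat 2. With all shams, the exact permutation tests gave a two-sided p of 0.0667 for miR-7a-5p and 0.109 for miR-7b in TBI+, and of 0.0825 and 0.0769 in TBI−. The exact sign-flip permutation test over the 4 shams gave 0.5 and 0.625, and DESeq2 with the rat as a block called neither row in shams (adjusted p = 0.393 and 0.523).

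**Figure D3:**
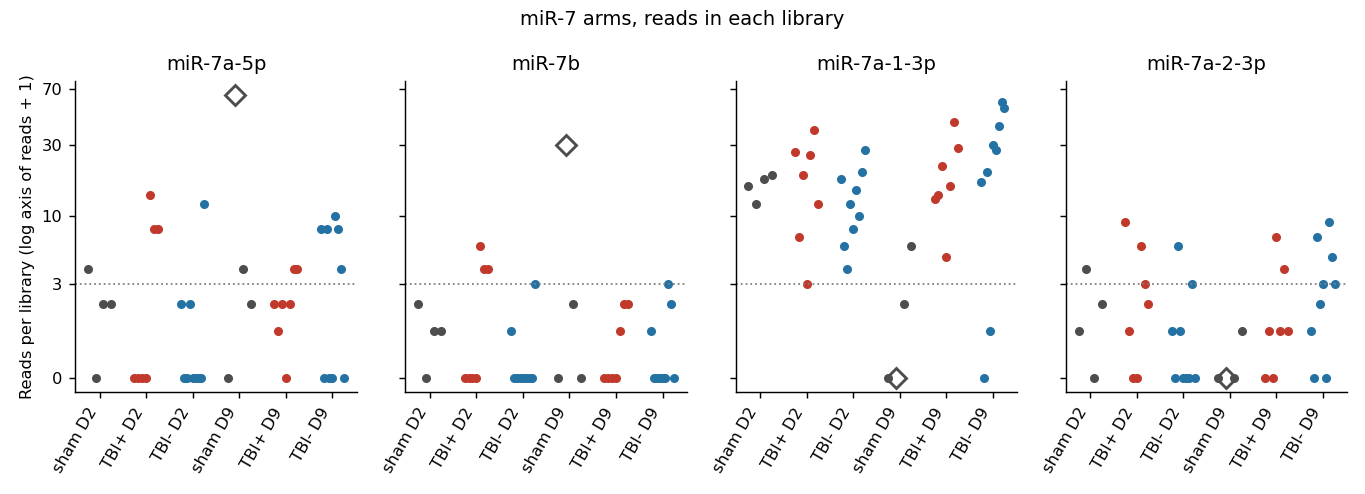
Reads per library (log axis of reads + 1) are plotted for the 4 miR-7 rows in each group and day, 1 point per library, with the dotted line at 3 reads and the open diamond for sham rat 2 on D9. That library stands at 64 reads of miR-7a-5p and 30 of miR-7b, and at 0 reads of both 3p strands, while miR-7a-1-3p lies above 3 reads in 34 of 40 libraries.

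The 3p strands of the miR-7 hairpins did not share this pattern. MiR-7a-1-3p, the passenger strand of the Hnrnpk hairpin, had 0 reads in the D9 library of sham rat 2, and miR-7a-2-3p, from the other miR-7a hairpin, had 0 there as well. Over all libraries miR-7a-1-3p had more reads than miR-7a-5p in 36 of 40, and in 13 libraries it was above 3 reads where miR-7a-5p was at 0. The 5p strand is usually taken to be the abundant one.

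MiR-7a-1-3p stood at different sides of the TBI level in shams on the 2 days, without passing the test. On D2 sham rats 1 to 4 had 16, 12, 18 and 19 reads, a mean of 19.3 ± 9.0 CPM (SD, n = 4), and TBI rats a mean of 11.5 ± 4.6 CPM (SD, n = 16). On D9 the shams had 0, 0, 2 and 6 reads, a mean of 6.66 ± 8.19 CPM (SD, n = 4), and TBI rats a mean of 17.7 ± 9.9 CPM (SD, n = 16). The groups overlapped on both days. The edgeR log2 fold change was −0.52 ± 0.34 on D2 (SE, adjusted p = 0.426) and 1.21 ± 0.71 on D9 (SE, adjusted p = 0.440), and the exact permutation tests gave unadjusted p of 0.0402 and 0.0227. Without sham rat 2 the D9 values were 0.79 ± 0.74 (SE, edgeR adjusted p = 0.755) and an exact permutation p of 0.0949. The change between the days was 1.76 ± 0.76 (SE, edgeR adjusted p = 0.214). A level of 3 reads was worth 8.38 to 21.3 CPM in the D9 shams. MiR-7a-2-3p ranged from 0 to 9 reads and was called in no comparison.

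The miRNAs most like miR-7a-1-3p over the 40 libraries were miR-142-5p (Pearson r 0.73 of log2 CPM), miR-30a-3p (0.70) and miR-30e-3p (0.69). Without the D9 library of sham rat 2 they were miR-142-5p (0.78), miR-188-5p (0.75) and miR-342-3p (0.73). MiR-7a-1-3p itself had an r of 0.61 with the depth of the library.

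**Figure D4:**
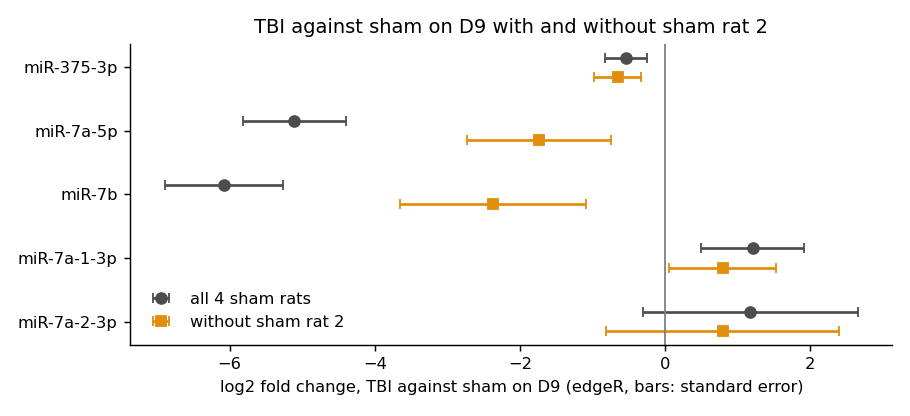
The edgeR log2 fold change of TBI against sham on D9 (x axis, bars are the standard error) is given for the 5 members that had over 3 reads in at least 9 libraries or were called, outside the cluster of miR-216 and miR-217, with all 4 sham rats (circles) and without sham rat 2 (squares). MiR-7a-5p moves from −5.11 to −1.74 and miR-7b from −6.07 to −2.37, while miR-375-3p stays between −0.65 and −0.54.

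The D9 library of sham rat 2 stood apart in other miRNAs too. It held 162125 reads, and 35 miRNAs with at least 10 reads in it were above their level in all other 39 libraries. TBI− rat 2 on D9 had 38 such miRNAs. In 12 of those of sham rat 2 the excess was over 5-fold, and in no other library was that so for more than 1 miRNA. The largest excesses were 109.3-fold for miR-185-5p, 42.8-fold for miR-24-3p, 30.3-fold for miR-3068-5p and 22-fold for miR-455-3p. MiR-7a-5p was the fifth at 19.9-fold, and miR-1b (18.9-fold), miR-7b (18.7-fold), miR-494-3p (15.3-fold), miR-503-5p (12.2-fold) and miR-200c-3p (8.98-fold) followed. Its miR-375-3p level of 7513 CPM was within the range of the other 3 shams, and its reads of miR-216 and miR-217 came to 1. In the same library the red cell miRNAs were at 4996 CPM, the brain miRNAs at 3750 CPM and the gut and kidney miRNAs at 64296 CPM, each within the range of the D9 TBI libraries. Of the 3 muscle miRNAs on the marker list, miR-1-3p and miR-133a-3p were at 0 and miR-206-3p at 12.3 CPM, while miR-1b, a relative of miR-1 that was not on the list, was at 67.8 CPM (11 reads), and the liver miRNA miR-122-5p was at 0.

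The summed level of the exocrine pancreas cluster, miR-216a, miR-216b and miR-217, was lower on D9 than on D2. The sum was not tested, and not every row went that way, since miR-217-3p had 4 reads on each day. The 6 rows together had 257 reads on D2, a mean of 10.8 ± 7.3 CPM (SD, n = 20), and 43 reads on D9, a mean of 2.07 ± 2.12 CPM (SD, n = 20). The sum was lower on D9 in 19 of 20 rats, and the remaining rat, sham rat 1, had 0 reads on both days. In the TBI rats, whose pooled depth was close on the 2 days (20913199 and 20410969 reads), 218 reads became 41. Over the same days in the TBI rats the red cell miRNAs went from 3881 ± 1643 to 6815 CPM, miR-223-3p from 1822 ± 594 to 2553 CPM, the gut and kidney miRNAs from 45425 ± 29784 to 61292 CPM and the brain miRNAs from 7335 ± 3024 to 6159 CPM (SD, n = 16), and their part in the level of the cluster was not tested. In TBI+ the mean went from 10.3 ± 3.9 to 2.55 ± 2.02 CPM (SD, n = 7), in TBI− from 12.1 ± 9.7 to 1.62 ± 1.98 CPM (SD, n = 9). The shams went from 8.83 ± 6.48 to 2.24 ± 2.93 CPM (SD, n = 4), at a D9 depth where 3 reads were worth 8.38 CPM or more.

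**Figure D5:**
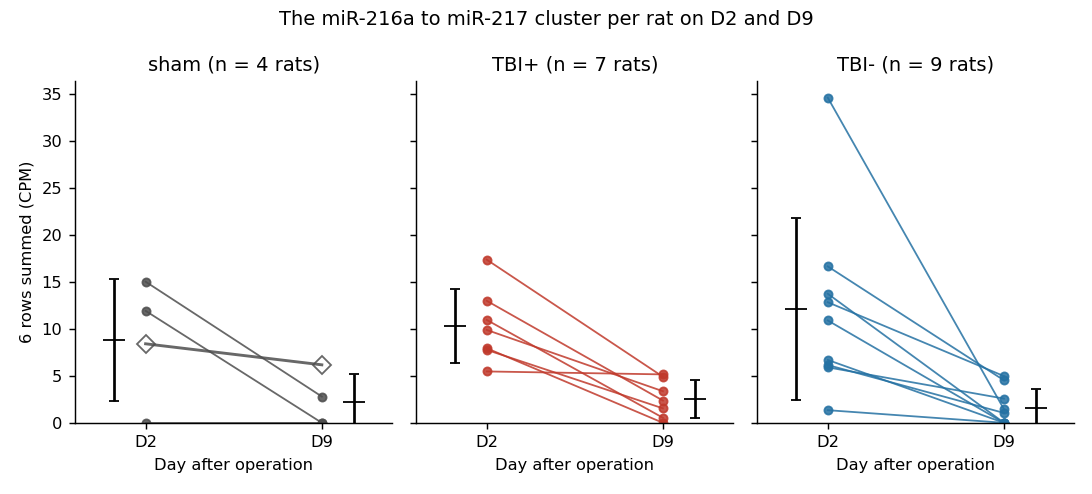
Each line joins the summed level of the 6 miR-216a, miR-216b and miR-217 rows (CPM, linear axis from 0) of 1 rat on D2 and D9, by group, with the group mean ± SD in black and open diamonds for sham rat 2. Of 20 rats, 19 are lower on D9, and the highest D9 value is 6.17 CPM, which is 1 read in sham rat 2.

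MiR-217-5p, a strand used as a plasma marker of acinar injury, had a lower mean on D9 in both TBI groups and was called in TBI−. In TBI− rats 1 to 9 it had 13, 1, 4, 3, 3, 4, 9, 4 and 21 reads on D2 and 2, 0, 0, 0, 0, 2, 0, 1 and 4 on D9. In CPM it was lower on D9 in 9 of 9 TBI− rats, from a mean of 5.15 ± 3.31 to 0.716 ± 1.084 (SD, n = 9). The edgeR log2 fold change was −2.56 ± 0.65 (SE, adjusted p = 0.0030), and the exact sign-flip permutation test gave an unadjusted two-sided p of 0.00391, the smallest that 9 rats allow. In TBI+ rats 1 to 7 it had 3, 7, 12, 2, 5, 4 and 3 reads on D2 and 1, 1, 2, 0, 2, 1 and 3 on D9, lower in CPM in 6 of 7 rats, with an edgeR log2 fold change of −1.63 ± 0.71 (SE, adjusted p = 0.108). The exact sign-flip permutation test gave an unadjusted two-sided p of 0.0313 in TBI+. Whether the change differed between TBI+ and TBI− was not tested. No TBI+ library on D9 had more than 3 reads of it, and the D2 mean was 1.4 times the mean level that 3 reads were worth there. In shams there were 0, 0, 8 and 3 reads on D2 and 0, 1, 0 and 0 on D9.

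MiR-216a-5p and miR-216a-3p come from the 2 arms of 1 hairpin. MiR-216a-5p had 92 reads on D2, in 17 libraries, and 16 on D9, in 8. In TBI− it was called lower on D9 by edgeR (adjusted p = 0.0454), and the call was lost with the rat as a block (adjusted p = 0.0971) and without sham rat 2 (adjusted p = 0.0532). In TBI+ its edgeR log2 fold change was −1.98 ± 0.78 (SE, adjusted p = 0.0743). MiR-216a-3p had 41 reads in 12 D2 libraries and was listed at 0 in all 20 D9 libraries. It was called by edgeR in TBI− (adjusted p = 0.0010) and in TBI+ (adjusted p = 0.0318), and in TBI+ not with the rat as a block (adjusted p = 0.130) nor by DESeq2 (adjusted p = 0.157). No fold is given for miR-216a-5p in TBI−, where no D9 library had more than 3 reads and the mean D2 level was 3.08 CPM, nor for miR-216a-3p, whose mean D2 level, 2.26 ± 3.04 CPM in TBI (SD, n = 16), was below 3.31 CPM, the mean over the TBI D9 libraries of what 3 reads are worth.

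From D2 to D9, then, 3 of 12 members were called lower in TBI− and 1 of 12 in TBI+, where edgeR called 12.9% and 11.2% of the 581 miRNAs lower (20.1% and 16% in either direction). In shams none of the 6 cluster rows was called. The change was not shown to differ between TBI and sham, since the interaction of miR-217-5p was −0.75 ± 1.77 (SE, edgeR adjusted p = 1.00). Without sham rat 2, whose D9 library held the only miR-217-5p read of the D9 shams, it was 3.28 ± 2.99 (SE, edgeR adjusted p = 0.773). TBI against sham on D9 likewise went from −0.21 ± 1.39 (SE, edgeR adjusted p = 0.960) to 3.24 ± 2.66 (SE, edgeR adjusted p = 0.724), and with the other 3 shams at 0 the fitted values depend on the prior count. Between groups within a day the cluster rows were called in no comparison. MiR-217-5p was at 4.83 ± 3.22 CPM in TBI and 3.54 ± 5.68 CPM in sham on D2 (log2 fold change 0.66 ± 0.72, SE, edgeR adjusted p = 0.650). The 2 TBI− rats with both libraries in the second run of numbers went from 7 to 0 and from 8 to 5 reads of the cluster. MiR-216b-5p (5 reads), miR-216b-3p (9 reads) and miR-217-3p (8 reads) were too scarce to compare.

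No member was called between TBI and sham on D2, where edgeR called 6.19% of the 565 miRNAs tested, nor in TBI+ (3.19%) or TBI− (6.19%) against sham on that day. One member had an unadjusted p below 0.05 in TBI against sham on D2, miR-217-3p, with 8 reads in all. Between TBI+ and TBI− edgeR called 0 members and 0 miRNAs on either day, with 38 miRNAs at an unadjusted p below 0.05 on D2 and 22 on D9, and DESeq2 also called 0. MiR-375-3p was 0.32 ± 0.33 higher on the log2 scale in TBI+ on D2 (SE, edgeR adjusted p = 0.850) and 0.14 ± 0.28 on D9 (SE, edgeR adjusted p = 0.959). Over the members the median log2 fold change of TBI against sham was 0.18 on D2 and 0.51 on D9, beside 0.09 and 0.30 over all miRNAs tested, and 6 of the 12 members had fewer than 10 reads in every library.

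Other miRNAs of endocrine cells and the pancreas were read from a separate list of 25 rows, of which 22 had reads. The most abundant were miR-148a-3p, an acinar miRNA, with a mean of 9435 CPM, and miR-182, of a cluster best known from sensory cells, with 1521 CPM. MiR-148a-3p was called in no comparison, and in shams it went from 11421 ± 1436 CPM on D2 to 7061 ± 2930 CPM on D9 (SD, n = 4). MiR-182 was higher in TBI than in sham on D2, at 2317 ± 1410 against 1036 ± 514 CPM (edgeR log2 fold change 1.29 ± 0.36, SE, adjusted p = 0.0274), and lower on D9 than on D2 in both TBI+ (−1.33 ± 0.38, SE, adjusted p = 0.0129) and TBI− (−1.19 ± 0.34, SE, adjusted p = 0.0076). From D2 to D9 edgeR also called miR-153-3p lower in TBI+ (−2.28 ± 0.60, SE, adjusted p = 0.0063) and TBI− (−1.88 ± 0.55, SE, adjusted p = 0.0096), miR-96-5p and miR-204-3p lower in TBI+, and miR-429 higher in TBI− (0.89 ± 0.26, SE, adjusted p = 0.0114). In TBI against sham on D9 only miR-200c-3p of this list was called, and it stood at 401 CPM in sham rat 2 and at 34.3 ± 9.0 CPM in the other 3 shams (SD, n = 3). It was also called higher on D9 than on D2 in shams (2.56 ± 0.56, SE, edgeR adjusted p = 0.0026). In TBI against sham, then, 1 of 22 list members was called on D2, beside 6.19% of all miRNAs, and 1 of 21 on D9, beside 3.51%. From D2 to D9 there were 4 of 22 in TBI+, beside 16%, 3 of 22 in TBI−, beside 20.1%, and 1 of 22 in shams, beside 5.68%.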

How the data were processed

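The authors deposited 1 table of raw counts of reads per mature miRNA (miRBase 22), in 40 libraries. Per the labels and the study's methods, RNA came from EDTA plasma, libraries were made with the TruSeq small RNA kit, 2 flow cells were merged per library, and reads were trimmed with Trimmomatic 0.36, mapped to Rno6 with Bowtie2 and counted with featureCounts. The members and lists were chosen with earlier results of these data known. Groups were tested with edgeR 4.0.16 (R 4.3.3; quasi-likelihood test, TMM scaling, Benjamini-Hochberg adjustment over all miRNAs with a read, called at an adjusted p below 0.05), with all 20 libraries of a day, or with all 40 and the 6 group and day means for D9 against D2 and for the difference between days. For that difference the written plan named only the D2 libraries, which cannot give it, so all 40 were used. DESeq2 1.42.0, the study's tool, was an alternative. It is given with its default independent filtering; a first run with that filter set for 0.05, seen before it was replaced, called more miRNAs in TBI against sham on both days. Exact permutation tests used the mean log2(CPM + 1), and their 118 values were not adjusted. CPM is the count divided by the library total, times 1e+06. Likeness used log2 CPM with a prior count of 2. Genes named were all members, list members that were called and the 2 most abundant, the 3 miRNAs most like a member, and the 10 with the largest excess in the D9 library of sham rat 2. The titles number the samples within each group, and D2 and D9 libraries of 1 group and number were taken as 1 animal. Their deviations from the group means were hardly correlated (median r −0.06, over 0.1 in 4 of 20 rats), so the counts do not show this pairing. The rat blocks, the sign-flip tests and the counts of rats that rose or fell rest on it. Fits were tested on simulated data. No 2 libraries were identical. The views by run of library numbers, the sign-flip tests, the leaving out of TBI rats, and the alternatives that leave out only the D9 library of sham rat 2 were chosen after seeing the data. So were DESeq2 with the rat as a block and the edgeR fit with that block and sham rat 2 left out.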

Additional observations from a re-analysis of the deposited data

Results flagged for a closer look

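In 35 groups of 4 to 9 rats, a rat far from the others was looked for in each member. The rule is set to mark about 1 in 20 groups by chance. That rate was not checked for counts as low as most of these, so the number of marked groups cannot be set against it. MiR-375-3p of TBI+ on D2 had its highest value, 10545 CPM, in rat 7, and the next rat was at 4631 CPM. In sham on D9, rat 2 stood at 395 CPM of miR-7a-5p and 185 CPM of miR-7b, and the next rats at 19.8 and 9.90 CPM. The other cases rested on 12 reads or fewer. MiR-7a-5p was at 6.05 CPM (12 reads) in rat 9 of TBI− on D2, and at 0 CPM in rat 4 of TBI+ on D9, the lowest of its group. MiR-7a-2-3p was at 14.8 CPM (6 reads) in rat 3 of TBI− on D2 and at 12.8 CPM (7 reads) in rat 4 of TBI+ on D9. MiR-216a-3p was at 12.4 CPM (5 reads) in rat 3 of TBI− on D2.

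The TBI against sham difference differed between D2 and D9 for miR-7a-5p and for miR-7b (edgeR, both adjusted p = 0.0289), and for neither without the D9 library of sham rat 2.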

How the results depend on the processing

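Of the members called per comparison, 2 were called on D9 in each of TBI, TBI+ and TBI− against sham, 2 from D2 to D9 in sham, 1 in TBI+ and 3 in TBI−, and 2 in the difference between days. Leaving out 1 rat in turn gave 0 to 2 in each of these comparisons, the 0 against sham coming from sham rat 2, and 2 to 3 in TBI−. In TBI+ the call was lost without rat 2, 3 or 7, and in the difference both were lost without TBI− rat 9. The filter on low counts removed miR-7a-5p, miR-7b and both arms of miR-216a before any test, which left 0 calls except 1 in TBI−, miR-217-5p. With miR-7a-5p and miR-7b summed there was 1 call in place of 2 in each comparison with the D9 shams. Without the D9 library of sham rat 2, edgeR and DESeq2 both called 0 against sham on D9, 0 in sham and 0 in the difference, DESeq2 giving miR-7a-5p and miR-7b no adjusted p on D9 and calling 0 in TBI+. With sham rat 2 left out and the rat as a replicate block, 0 were called in sham, in TBI+ and in the difference. With the rat as a replicate block 0 were called in TBI+ and 0 in the difference, and DESeq2 with that block called 1 in sham, 0 in TBI+, 1 in TBI− and 0 in the difference. DESeq2 alone called 0 in TBI+ and 0 in the difference, scaling to miR-28-3p 0 in TBI+, and the shared runs of library numbers 0 in the difference. Calls were gained as well. MiR-375-3p was called in addition from D2 to D9 in sham by DESeq2 (adjusted p = 0.0452), by edgeR scaled to miR-28-3p (0.0476) and in the shared runs (0.0046), making 3 each time, and in TBI against sham on D9 when scaled to miR-28-3p (0.0420), also making 3. With the rat as a replicate block it was called in sham by edgeR (adjusted p = 0.0344), which lost miR-7b. DESeq2 with that block called it as well (adjusted p = 0.0290), as its 1 call in sham, and lost miR-7a-5p and miR-7b. On D2 and between TBI+ and TBI− no member was called under any of these settings. The cause was not tested.

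The sign of miR-375-3p turned in comparisons that passed no test. The permutation tests gave a difference of −0.0065 for TBI and −0.22 for TBI− against sham on D2. The animal number as a replicate block gave −0.047 for TBI− on D2. That number marks no shared animal across groups, and the deviations of same-numbered libraries from their group means were hardly correlated (median r −0.03, over 0.1 in 8 of 30 pairs). Leaving out 1 rat gave −0.17 to 0.38 for TBI− against sham on D2, −0.047 to 0.68 for TBI+ against TBI− on D2, −0.10 to 0.32 on D9, and −0.16 to 0.70 for D9 against D2 in TBI+. In sham the D9 against D2 value stayed between 1.04 and 1.17. The sign of miR-217-5p turned as well, without passing a test. For TBI against sham on D9 it lay between −0.85 and 3.24 with 1 rat left out, above 0 only without sham rat 2, and the permutation test gave a difference of 0.066. For the difference between days it lay between −2.85 and 3.28 with 1 rat left out, again above 0 only without sham rat 2, and was 2.81 without that rat's D9 library and 3.26 with the replicate block and sham rat 2 left out. In the D9 shams it rests on 1 read, in that library. Depth limits the rest, since only 2 members averaged 10 reads or more per library. At least 1 read was found for 12 members in place of 8 above 3 reads, and at least 10 reads for 6.

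Over all miRNAs, edgeR called 19 in TBI against sham on D9 (29 scaled to miR-28-3p, 7 with the animal number as a block, 10 in the third run of library numbers, 0 without sham rat 2, where DESeq2 without its D9 library called 17), 10 in TBI+ (16 with RLE scaling, 3 with the filter, 4 with that block, 0 without sham rat 2, 17 by DESeq2 without that library) and 26 in TBI− (0 without sham rat 2, 6 with that block, 10 by DESeq2 without that library, 17 without sham rat 1). On D2 it called 35 in TBI (23 scaled to miR-28-3p, 21 without sham rat 1), 18 in TBI+ (34 by DESeq2, 11 without sham rat 1), 35 in TBI− (23 without sham rat 1) and 0 between TBI+ and TBI− (3 with that block). From D2 to D9 it called 33 in sham (15 without rat 3, 2 without rat 2) and 93 in TBI+ (43 in the shared runs), and 19 in the difference (1 in the shared runs, 11 to 12 without any 1 sham). Of the calls in sham, 15 of 33 were higher on D9, and 28 of 30 when scaled to miR-28-3p.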
